A study of Mus musculus with 16 samples.

Results

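Dendritic cells are recognised in bulk RNA-seq by a small set of genes, and 9 of these were followed across 4 sorted myeloid populations. They were Flt3, Zbtb46, Batf3, Xcr1, Clec9a, Ccr7, Siglech, Cd209a and Itgae, found by symbol in the table of read counts, where all 9 were present among 20200 genes. The cells came from the interface tissue around the grafted tendon of C57BL/6 wild-type mice (C57BL/6J per the methods), 12 weeks old, on days 1 and 14 after reconstruction of the anterior cruciate ligament (ACLR), and all groups had the surgery. Live CD45+ lineage-negative cells were sorted as CD9+ macrophages (Ly6G- CD11b+ F4/80+ CD9+), CX3CR1+ macrophages (Ly6G- CD11b+ F4/80+ CX3CR1+ CD9-), F4/80- myeloid cells (Ly6G- CD11b+ F4/80-) and neutrophils (Ly6G+ Ly6C+). Each population had 2 libraries on each day, which makes 16 libraries in 8 groups, and each library was made from cells pooled over several mice. The mice were too few for each library to have its own pool, so libraries of 1 day share mice between populations. The question was how much of the dendritic cell program the F4/80- sort held beside the other populations.

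Dendritic cells capture antigen and present it to T cells. Conventional dendritic cells develop from FLT3-bearing progenitors under FLT3 ligand and share the transcription factor ZBTB46. The cDC1 branch needs BATF3 and carries XCR1, CLEC9A and, in many tissues, the integrin CD103 encoded by Itgae, whereas the cDC2 branch depends on IRF4 in many tissues and includes cells with CD209a. Plasmacytoid dendritic cells carry SIGLEC-H, and CCR7 guides mature dendritic cells to lymph nodes. None of these genes belongs to dendritic cells alone. Flt3 is also used by early blood progenitors, Cd209a by some monocytes and macrophages, Itgae by T cells and Siglech by some macrophages and dendritic cell precursors. The gates bear on what the sorts can hold, since cDC1 usually carry little CD11b and plasmacytoid dendritic cells carry B220, and the lineage antibodies of the study included B220, CD34 and c-kit.

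The genes lie apart in the genome. On mm10 Flt3 is at chr5:147330741-147400489, Zbtb46 at chr2:181387762-181459426, Batf3 at chr1:191097847-191108945, Xcr1 at chr9:123852315-123862029, Clec9a at chr6:129408862-129424763, Siglech at chr7:55768178-55778925 and Cd209a at chr8:3743397-3748984. Ccr7, at chr11:99144196-99155077, and Itgae, at chr11:73090583-73147446, share a chromosome. All 9 are protein coding and counted over their exons. RefSeq promoter windows on GRCm38.p6, from 250 bases before to 50 bases after the start site, were found for 7 of the 9 genes, and 3 are shown because these genes carry the main contrasts described here: Flt3 the level shared by F4/80- cells and late CX3CR1+ macrophages, Siglech the gene nearly restricted to the F4/80- libraries, and Cd209a the gene that rose from day 1 to day 14. The windows lie at chr5:147400440-147400739 on the minus strand, chr7:55767934-55768233 on the plus strand and chr8:3748935-3749234 on the minus strand. Capitals mark a match to the motifs searched.
Flt3: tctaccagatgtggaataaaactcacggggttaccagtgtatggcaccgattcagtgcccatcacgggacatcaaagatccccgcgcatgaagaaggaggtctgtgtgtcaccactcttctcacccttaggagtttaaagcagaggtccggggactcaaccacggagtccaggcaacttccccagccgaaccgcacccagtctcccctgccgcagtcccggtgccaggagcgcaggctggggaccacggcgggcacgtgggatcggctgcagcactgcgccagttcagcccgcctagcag
Siglech: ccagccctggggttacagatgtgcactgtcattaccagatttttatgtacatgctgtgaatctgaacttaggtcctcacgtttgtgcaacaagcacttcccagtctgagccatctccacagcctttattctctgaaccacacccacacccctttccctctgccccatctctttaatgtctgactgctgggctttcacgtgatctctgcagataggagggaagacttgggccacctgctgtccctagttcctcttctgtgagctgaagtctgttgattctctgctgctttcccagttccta
Cd209a: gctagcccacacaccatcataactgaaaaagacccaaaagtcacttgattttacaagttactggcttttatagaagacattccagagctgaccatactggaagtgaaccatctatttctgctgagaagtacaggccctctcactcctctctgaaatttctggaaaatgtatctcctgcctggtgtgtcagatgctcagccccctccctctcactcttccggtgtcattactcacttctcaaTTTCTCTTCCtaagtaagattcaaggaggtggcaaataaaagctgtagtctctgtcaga
The windows were searched on both strands for GAGGAAGT (PU.1-type), GAAANNGAAA (ISRE-type), TGANTCA (AP-1-type), GGAANNGAAA (ETS-IRF-type) and CAGCTG (E-box), where N is any base. The Cd209a window held 1 match, to the ETS-IRF-type letters on the strand opposite to the one printed, starting 9 bases before the start site. The Flt3 and Siglech windows held none. Over the 4 windows not printed, a single match was found, TGACTCA in the Zbtb46 window, whose RefSeq start lies 35038 bases inside the gene from the 5′ end of the Gencode model. Among 32851 promoter windows of the same length, 3.2% held the PU.1-type, 3.44% the ISRE-type, 7.81% the AP-1-type, 2.72% the ETS-IRF-type and 16.3% the E-box letters.

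The libraries held 9233952 to 19814119 counts, and levels are given as CPM (counts scaled to a common library total) with TMM factors, on which 1 count was worth 0.0439 to 0.12 CPM. Transcripts of Adgre1 and Ly6g followed the labels in the groups given here, and of the other sort antigens only Cd9 is shown. Adgre1, which encodes F4/80, had 9.05 to 11.1 mean CPM in the F4/80- groups against 140 to 181 in the macrophage groups, and Ly6g had 103 and 277 in neutrophils against 8.31 and 9.17 in F4/80- cells. Cd9 had 108 and 117 in F4/80- cells, against the 149 and 163 of CD9+ macrophages and above the 19.8 and 6.56 of CX3CR1+ macrophages. The 2 CD9+ libraries of day 1 were the least alike pair, with a correlation of 0.935 in log2 CPM against 0.976 to 0.988 for the other 7 pairs. Their summed level of 10 neutrophil genes was 5694 and 18542 CPM. With 2 libraries per group, a single value cannot be tested by permutation at the usual threshold, as the smallest exact two-sided p is 0.333, so tests rest on edgeR's quasi-likelihood fit over all genes. A gene was called when its Benjamini-Hochberg adjusted p was under 0.05 and its log2 fold change was at least 1 in size. It was tested when its mean CPM before TMM scaling reached 3 in at least 1 group, which 11998 genes did, 7 of the 9 members among them. Xcr1 and Ccr7 did not reach it in any group. Siglech and Itgae passed through a single F4/80- group and Clec9a through the 2 F4/80- groups, so these members could only enter the test where F4/80- cells were high.

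Flt3, the receptor for the growth factor on which dendritic cells depend, was highest in F4/80- cells and, at day 14, nearly as high in CX3CR1+ macrophages. F4/80- cells had 21.1 and 28.0 CPM at day 1 and 29.8 and 29.9 at day 14. CX3CR1+ macrophages had 7.95 and 8.0 CPM at day 1 and 21.5 and 27.1 at day 14. CD9+ macrophages had 5.09 and 6.23 CPM at day 1 and 5.86 and 5.68 at day 14, and neutrophils had 0.975 and 0 at day 1 and 0.843 and 0.72 at day 14. The F4/80- libraries thus lay above all CD9+ and neutrophil libraries on both days, whereas the CX3CR1+ libraries of day 14 fell within the range of the F4/80- libraries of day 1. Against CD9+ macrophages, Flt3 was 4.36-fold higher in F4/80- cells at day 1 (log2 2.12 ± 0.38 SE, adjusted p = 0.000752) and 5.17-fold higher at day 14 (log2 2.37 ± 0.39 SE, adjusted p = 0.000607). Against CX3CR1+ macrophages it was 3.08-fold higher at day 1 (log2 1.62 ± 0.36 SE, adjusted p = 0.00233). On day 14 that difference was log2 0.30 ± 0.35 SE (adjusted p = 0.561) and did not pass. All 3 calls held when any 1 library was left out. In these bulk libraries, fewer cells of a type and less RNA per cell cannot be told apart.

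Zbtb46, a transcription factor shared by both branches of conventional dendritic cells, was at low levels with its highest values in F4/80- cells. It had 3.17 and 3.76 CPM there at day 1 and 6.11 and 6.77 at day 14. CD9+ macrophages had 0.99 and 3.06 CPM at day 1 and 2.98 and 2.74 at day 14, CX3CR1+ macrophages 0.0878 and 0.575 at day 1 and 1.57 and 2.32 at day 14, and neutrophils 0.6 and 0.527 at day 1 and 0.241 and 0 at day 14. No library of another population reached the lowest F4/80- library of the same day. The day 1 difference from CX3CR1+ macrophages, which had 2 and 11 counts, was 10.6-fold (log2 3.40 ± 0.75 SE, adjusted p = 0.00219). The differences from CD9+ macrophages were log2 0.81 ± 0.66 SE at day 1 (adjusted p = 0.384) and log2 1.17 ± 0.65 SE at day 14 (adjusted p = 0.295), and neither passed. On day 14 the difference from CX3CR1+ macrophages was log2 1.73 ± 0.66 SE (adjusted p = 0.0535), just outside the threshold, and it was called by DESeq2 (adjusted p = 0.0206) and with a replicate block (adjusted p = 0.0495).

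The cDC1 genes did not move as one. Clec9a, which encodes a receptor for the actin of dead cells, had 2.34 and 2.89 CPM in F4/80- cells at day 1 and 5.16 and 5.96 at day 14. It had 1.27 and 0.528 CPM in CD9+ macrophages at day 1 and 1.25 and 2.74 at day 14, and 0.0878 and 0.209 in CX3CR1+ macrophages at day 1 and 1.57 and 1.67 at day 14. The F4/80- libraries were the highest on each day. The difference from CX3CR1+ macrophages was 17.1-fold at day 1 (log2 4.09 ± 0.70 SE, adjusted p = 0.000276), against 2 and 4 counts in the CX3CR1+ libraries, and 3.42-fold at day 14 (log2 1.77 ± 0.57 SE, adjusted p = 0.0231). The day 14 call ended when any 1 of its 4 libraries was left out, with adjusted p of 0.0672 to 0.115. Against CD9+ macrophages Clec9a differed by log2 1.48 ± 0.59 SE at day 1 (adjusted p = 0.0736) and log2 1.48 ± 0.56 SE at day 14 (adjusted p = 0.108). In neutrophils it had 0.3 and 0.614 CPM at day 1 and 1.57 and 2.26 at day 14. The exons of Clec9a share 184 bases, 5.59% of their length, with Clec1b on the same strand, a C-type lectin of platelets, and Clec1b had 2.77 and 2.19 CPM in neutrophils at day 1 and 5.9 and 5.04 at day 14. How reads of the shared stretch were counted was not tested.

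Batf3, the transcription factor that cDC1 require, ran the other way. It had 0.488 and 1.79 CPM in F4/80- cells at day 1 and 1.38 and 1.71 at day 14. CD9+ macrophages had 4.95 and 3.7 CPM at day 1 and 2.11 and 2.23 at day 14, and CX3CR1+ macrophages had 4.04 and 3.29 at day 1 and 6.45 and 4.36 at day 14. Every macrophage library therefore lay above every F4/80- library. The differences were log2 -1.92 ± 0.75 SE from CD9+ macrophages at day 1 (adjusted p = 0.0682), and log2 -1.68 ± 0.74 SE and log2 -1.80 ± 0.76 SE from CX3CR1+ macrophages on days 1 and 14 (adjusted p = 0.0911 and 0.0763). None of the 3 passed in edgeR. DESeq2 called all 3, with adjusted p of 0.0249, 0.045 and 0.0342. The difference from CD9+ macrophages at day 14 was log2 -0.49 ± 0.78 SE (adjusted p = 0.777).

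Xcr1, the receptor by which cDC1 meet XCL1-secreting lymphocytes, stayed under 2 CPM in all libraries. In F4/80- cells it had 37 and 2 counts at day 1, or 1.81 and 0.0917 CPM, and 2 and 5 counts at day 14. CD9+ macrophages had 4 and 11 counts at day 1 and 5 and 8 at day 14, CX3CR1+ macrophages 20 and 1 at day 1 and 4 and 4 at day 14, and neutrophils 1 and 3 at day 1 and 0 and 0 at day 14. The highest mean, in F4/80- cells of day 1, came from 1 of the 2 libraries. Ordered by mean, neighbouring groups overlapped except for the neutrophils of day 14. At day 14 both CD9+ libraries, at 0.48 and 0.811 CPM, lay above both F4/80- libraries, at 0.145 and 0.408. At this depth Xcr1 did not set the F4/80- sort apart. In a fit of all 20200 genes it was not called in any comparison.

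Itgae, the CD103 chain, was highest in F4/80- cells at day 1. It had 3.66 and 1.83 CPM there at day 1 and 0.655 and 1.39 at day 14, from 75 and 40 counts and then 9 and 17. CD9+ macrophages had 1 and 8 counts at day 1 and 5 and 7 at day 14, CX3CR1+ macrophages 0 and 0 at day 1 and 8 and 2 at day 14, and neutrophils 8 and 9 at day 1 and 2 and 3 at day 14. Both F4/80- libraries of day 1 lay above all the others, while the lower F4/80- library of day 14 fell among the CD9+ and CX3CR1+ libraries. Against CX3CR1+ macrophages at day 1 Itgae was at least 19.0-fold higher, taking 3 counts in each CX3CR1+ library as the limit that a count of 0 allows (adjusted p = 0.000375). Against CD9+ macrophages it was 6.51-fold higher at day 1 (log2 2.70 ± 0.90 SE, adjusted p = 0.0365). This call was lost with no filter on low counts (adjusted p = 0.0705), with the replicate number as a block (adjusted p = 0.0545) and without replicate 1 of the CD9+ libraries of day 1 (adjusted p = 0.137).

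Siglech, a receptor of plasmacytoid dendritic cells and their precursors, was nearly restricted to F4/80- cells. It had 32 and 21 counts there at day 1, or 1.56 and 0.962 CPM, and 63 and 48 counts at day 14, or 4.58 and 3.92 CPM. Elsewhere the counts were 6 and 0 in CD9+ macrophages at day 1 and 3 and 1 at day 14, 0 and 0 in CX3CR1+ macrophages at day 1 and 1 and 0 at day 14, and 3 and 1 in neutrophils at day 1 and 0 and 0 at day 14. All 4 F4/80- libraries were above all 12 others. On day 14 the summed counts per scaled total were 21.6 times those of CD9+ macrophages (exact 95% interval 8.22 to 80.8, counting error only, with 4 counts in CD9+ cells), and the difference passed (log2 4.37 ± 0.99 SE, adjusted p = 0.00947). That call ended without CD9+ replicate 2 of day 14 (adjusted p = 0.138) or without F4/80- replicate 1 (adjusted p = 0.0587). Against CX3CR1+ macrophages the level was at least 8.74-fold higher at day 1 (adjusted p = 0.00167), and 95 times as high at day 14 with an interval of 16.7 to 3785 over a single count (adjusted p = 0.000966). The day 1 difference from CD9+ macrophages, log2 2.34 ± 0.95 SE, did not pass (adjusted p = 0.0817).

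Cd209a, a C-type lectin of cDC2 and monocyte-derived cells, was not led by F4/80- cells. It had 27.1 and 26.9 CPM in CX3CR1+ macrophages at day 14, above the 22.3 and 18.4 CPM of F4/80- cells and the 11.6 and 14.6 CPM of CD9+ macrophages on that day. On day 1 F4/80- cells were highest, with 8.49 and 6.46 CPM against 4.92 and 3.08 in CX3CR1+ macrophages and 0.99 and 2.96 in CD9+ macrophages, and neutrophils had 0.525 and 0.176. Neutrophils of day 14 had 0.241 and 0.309 CPM. No neighbouring groups outside the neutrophils overlapped. Cd209a was 3.96-fold higher in F4/80- than in CD9+ cells at day 1 (log2 1.99 ± 0.42 SE, adjusted p = 0.00237). Its differences from CX3CR1+ macrophages, log2 0.89 ± 0.37 SE at day 1 (adjusted p = 0.0705) and log2 -0.41 ± 0.35 SE at day 14 (adjusted p = 0.396), did not pass.

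Ccr7, the homing receptor of mature dendritic cells, had 42 and 40 counts in F4/80- cells at day 1 and 32 and 19 at day 14, or 1.55 to 2.33 CPM in the 4 libraries. It had 0 counts in both CX3CR1+ libraries of day 1, 9 and 8 at day 14, 0 and 5 in CD9+ macrophages at day 1, 3 and 8 at day 14, none in neutrophils at day 1 and 2 and 1 at day 14. All 4 F4/80- libraries were above all 12 others. The difference from CX3CR1+ macrophages at day 1 was at least 13.5-fold, and with all 20200 genes in the fit it passed (adjusted p = 0.00124). In the same fit the differences from CD9+ macrophages did not, with log2 3.03 ± 1.12 SE at day 1 (adjusted p = 0.0739) and log2 1.85 ± 1.03 SE at day 14 (adjusted p = 0.407). The difference from CX3CR1+ macrophages at day 14, log2 1.34 ± 1.00 SE, did not pass either (adjusted p = 0.43).

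**Figure D1:**
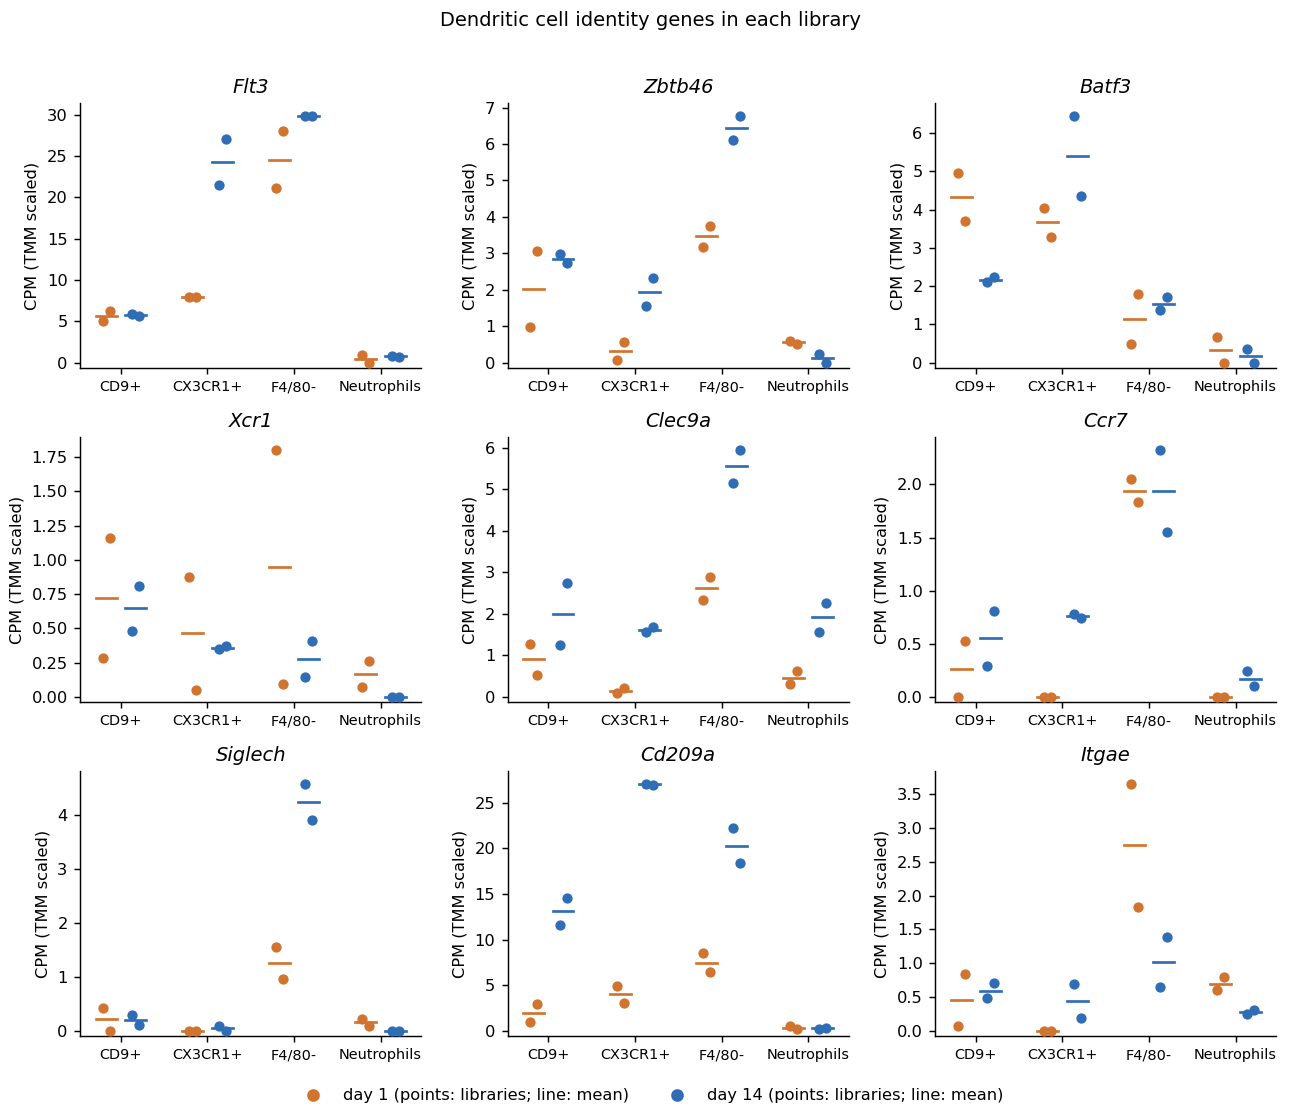
Level of each of the 9 dendritic cell identity genes in CPM (vertical axes, linear, 1 scale per gene) in the 4 sorted populations, with day 1 in orange and day 14 in blue, 1 point per library and a line at the mean of the 2 libraries. The F4/80- libraries are highest for Zbtb46, Clec9a, Ccr7 and Siglech on both days, Batf3 is lower in them than in every macrophage library, and Cd209a reaches 27.1 CPM in CX3CR1+ macrophages at day 14.

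Levels of different members can be compared only per length of transcript. On that scale, CPM per kilobase of exon, the F4/80- libraries of day 1 were led by Cd209a at 4.72 ± 0.91 (SD, n = 2) and Flt3 at 3.98 ± 0.79. The other 7 members lay between 0.213 and 0.981, Ccr7 the highest and Xcr1 the lowest. On day 14 Cd209a had 12.8 ± 1.7 and Flt3 4.83 ± 0.01, followed by Clec9a at 1.69 ± 0.17 and Siglech at 1.26 ± 0.14. CX3CR1+ macrophages of day 14 had Cd209a at 17.1 ± 0.08, Flt3 at 3.94 ± 0.64 and Batf3 at 3.38 ± 0.92, and each of the other 6 members was under 0.5.

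Set against CD9+ macrophages, 3 of the 7 members tested were called higher in F4/80- cells at day 1 (Flt3, Cd209a and Itgae), where 6.16% of all genes tested were called higher, and none lower, where 9.23% were. On day 14 it was 2 higher (Flt3 and Siglech), where 1.11% were, and none lower, where 6.59% were. Against CX3CR1+ macrophages it was 5 higher at day 1 (Flt3, Zbtb46, Clec9a, Siglech and Itgae), where 10.9% were, and 2 at day 14 (Clec9a and Siglech), where 10.4% were. None was lower, where 10.2% and 11.1% were. Against neutrophils 6 were higher on each day, where 26.4% and 27.4% of genes were, the exceptions being Batf3 at day 1 and Itgae at day 14. None was lower, where 22.6% and 21.3% were. The neutrophil calls of Itgae and Siglech at day 1 and of Clec9a and Batf3 at day 14 each ended without at least 1 of their libraries (adjusted p up to 0.176, 0.113, 0.147 and 0.167), and that of Itgae also with a replicate block (adjusted p = 0.0665). The median log2 difference over the 7 members was 1.99 and 1.17 against CD9+ macrophages, 3.40 and 1.17 against CX3CR1+ macrophages and 2.60 and 5.25 against neutrophils on days 1 and 14. With members at 0 in the other population placed at the limit of 3 counts per library, the medians of 3.40 and 5.25 became 3.13 and 3.66. In all 6 comparisons the median over all genes lay between -0.05 and 0.04. These 6 comparisons share their F4/80- libraries. Because 3 of the members were tested through F4/80- groups alone, the counts describe the members and do not show that the set stands apart. No member was called in the same direction against both macrophage populations on both days, which 90 genes higher and 368 lower were. The plot of differences from each population shows how far the members spread around 0.

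**Figure D2:**
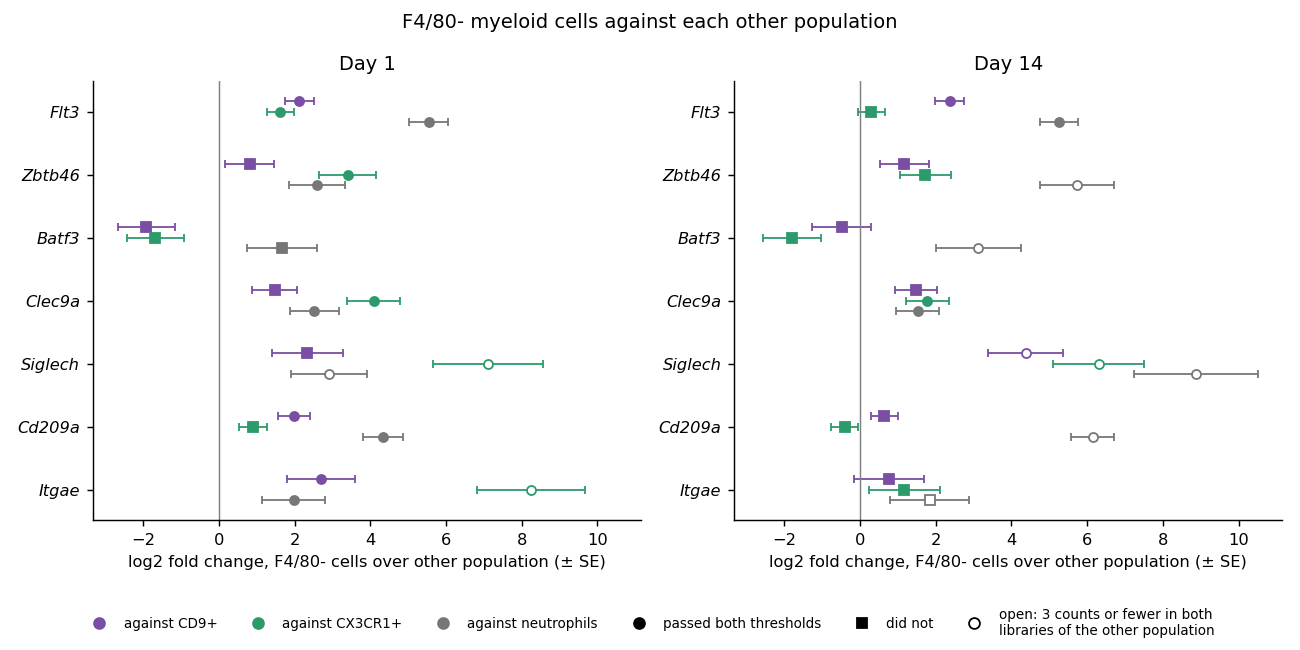
Fitted log2 fold change (± SE) of the 7 tested members in F4/80- cells over CD9+ macrophages (purple), CX3CR1+ macrophages (green) and neutrophils (grey) at day 1 (left) and day 14 (right), with circles for differences that passed both thresholds and squares for those that did not. Open symbols have 3 counts or fewer in both libraries of the other population, so their position depends on the prior count and is no bound. Flt3 stands at 0.30 against CX3CR1+ macrophages at day 14 and Batf3 lies to the left of 0 against both macrophage populations.

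Between the macrophage populations, the members called at day 1 were not those called at day 14. Whether the difference between CD9+ and CX3CR1+ macrophages changed from day 1 to day 14 was not tested. Of the 7, Batf3 alone changed sign (log2 0.24 ± 0.71 SE and -1.31 ± 0.75 SE), and it was called at neither. On day 1, 3 of the 7 were called higher in CD9+ than in CX3CR1+ macrophages, where 6.36% of genes were, namely Zbtb46, Clec9a and Itgae, and none lower, where 1.88% were. These are low counts, and leaving out 1 library brought the count down to 0 (without CX3CR1+ replicate 1 of day 1), 1 (without CX3CR1+ replicate 2) or 2 (without CD9+ replicate 1). Without CD9+ replicate 2 the calls of Zbtb46 and Itgae were lost and those of Siglech and Cd209a gained. With a replicate block the Itgae call was lost (adjusted p = 0.0686). At day 14 Zbtb46, Clec9a and Itgae differed by log2 0.56 ± 0.68 SE, 0.29 ± 0.59 SE and 0.40 ± 1.01 SE and did not pass (adjusted p = 0.614, 0.778 and 0.827). At day 1 Flt3 and Cd209a differed by log2 -0.50 ± 0.38 SE and -1.09 ± 0.42 SE and did not pass (adjusted p = 0.419 and 0.0967). On day 14, Flt3 and Cd209a were called lower in CD9+ macrophages, where 4.55% of genes were, and none was higher, where 9.65% were. Flt3 differed by log2 -2.07 ± 0.39 SE (adjusted p = 0.000863). Cd209a differed by log2 -1.04 ± 0.36 SE (adjusted p = 0.0422), and that call ended when any 1 of its 4 libraries was left out (adjusted p of 0.0878 to 0.233) and with a replicate block (adjusted p = 0.0506).

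From day 1 to day 14 more members were called in CX3CR1+ macrophages than in the other populations. There 5 of the 7 were called higher at day 14, where 2.39% of all genes were, and none lower, where 3.47% were. Flt3 rose 3.05-fold (log2 1.61 ± 0.36 SE, adjusted p = 0.00886), Cd209a 6.71-fold (log2 2.75 ± 0.38 SE, adjusted p = 0.000204), Clec9a 10.6-fold from 2 and 4 counts (log2 3.40 ± 0.73 SE, adjusted p = 0.00609) and Zbtb46 5.93-fold from 2 and 11 counts (log2 2.57 ± 0.77 SE, adjusted p = 0.0411). Itgae went from 0 counts in both libraries to 8 and 2, at least 3.06-fold higher (adjusted p = 0.0458). Left out 1 library at a time, only Cd209a held its call throughout. Flt3 lost it in 3 of 4 cases (adjusted p up to 0.0943), Zbtb46 in 3 (up to 0.254), Clec9a in 1, without CX3CR1+ replicate 1 of day 1 (0.0777), and Itgae in 4 (up to 0.299). Itgae lost it with a replicate block too (adjusted p = 0.0663).

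In F4/80- cells only Cd209a was called between the days, 1 of the 7 members, where 1.01% of genes were called higher and 2.24% lower. It rose 2.72-fold (log2 1.44 ± 0.36 SE, adjusted p = 0.026), and the call ended when any 1 of the 4 libraries was left out (adjusted p of 0.0998 to 0.195). The Siglech difference was log2 1.75 ± 0.75 SE (adjusted p = 0.212), that of Clec9a log2 1.09 ± 0.54 SE (adjusted p = 0.28) and that of Itgae log2 -1.43 ± 0.80 SE (adjusted p = 0.352), and none of these passed. Flt3 differed by log2 0.28 ± 0.35 SE (adjusted p = 0.73). In CD9+ macrophages Cd209a was again the 1 member called, where 4.75% of genes were called higher and 3.48% lower, with a 6.95-fold rise (log2 2.80 ± 0.42 SE, adjusted p = 0.000454) that held without each library. In neutrophils Clec9a was called higher, where 3.15% of genes were and 10.9% were lower, at log2 2.07 ± 0.68 SE (adjusted p = 0.033). That call ended when any 1 of the 4 neutrophil libraries was left out (adjusted p of 0.0518 to 0.174).

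Whether the change with time differed between populations was tested directly. For F4/80- cells against CD9+ macrophages edgeR called 0 of 7 members, where 1.69% of genes were called, 1 member (Cd209a) had an unadjusted p under 0.05, and DESeq2 also called 0. Without CD9+ replicate 2 of day 1, Cd209a was called (log2 -2.28 ± 0.53 SE, adjusted p = 0.0294). For F4/80- cells against CX3CR1+ macrophages edgeR called 0 of 7, where 1.01% of genes were called. Here 4 members (Flt3, Clec9a, Cd209a and Itgae) had an unadjusted p under 0.05, and DESeq2 called 2, Flt3 and Itgae. The Flt3 difference of changes was log2 -1.33 ± 0.50 SE, with adjusted p = 0.33 in edgeR and 0.0325 in DESeq2.

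**Figure D3:**
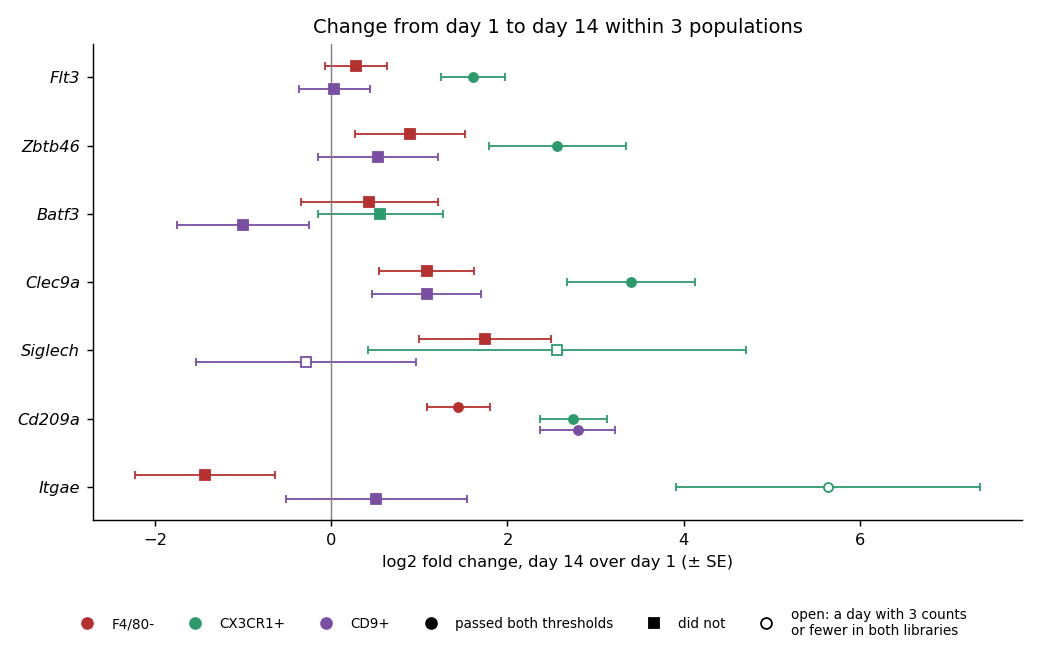
Fitted log2 fold change from day 1 to day 14 (± SE) of the 7 tested members in F4/80- cells (red), CX3CR1+ macrophages (green) and CD9+ macrophages (purple), circles for changes that passed both thresholds and squares for those that did not. Open symbols have a day with 3 counts or fewer in both libraries. Cd209a lies to the right of 0 in all 3 populations, at 1.44, 2.75 and 2.80.

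Other genes of dendritic cells were counted from lists, beside the members. Of all genes tested, 6.16% were called higher in F4/80- than in CD9+ cells at day 1 and 9.23% lower, and 1.11% and 6.59% at day 14. Against CX3CR1+ macrophages 10.9% were higher and 10.2% lower at day 1, and 10.4% and 11.1% at day 14. Of 12 tested genes shared by conventional dendritic cells, 3 were higher in F4/80- than in CD9+ cells, at both days Kmo, a kynurenine pathway enzyme, Dpp4, the CD26 peptidase, and Bcl11a, a transcription factor of lymphoid cells and dendritic cells. Kmo differed by log2 1.80 ± 0.45 SE and 1.98 ± 0.46 SE (adjusted p = 0.00712 and 0.00832), and Dpp4 by log2 1.66 ± 0.27 SE and 1.93 ± 0.27 SE (adjusted p = 0.000291 and 0.000164). Bcl11a differed by log2 1.45 ± 0.18 SE and 1.22 ± 0.18 SE (adjusted p = 3.04e-05 and 0.00022). The calls of genes for antigen presentation on MHC class II were not the same at both days. At day 1 none of H2-Aa, H2-Ab1, H2-Eb1 and Cd74 was called, and H2-DMb2 was higher than in CX3CR1+ macrophages (log2 1.86 ± 0.38 SE, adjusted p = 0.00121). At day 14 these 4 were called lower than in both macrophage populations. At day 14, H2-Aa was log2 -1.5 ± 0.18 SE and log2 -1.62 ± 0.18 SE in F4/80- cells relative to CD9+ and CX3CR1+ macrophages (adjusted p = 4.17e-05 and 5.34e-06), and Cd74, the invariant chain, log2 -1.71 ± 0.16 SE and log2 -2.01 ± 0.16 SE (adjusted p = 3.17e-06 and 2.02e-07). Mean Cd74 levels in F4/80- cells were 413 CPM at day 1 and 257 at day 14, against 606 to 1038 in the macrophage groups. In this list 0 genes were lower against CD9+ and 1 against CX3CR1+ macrophages at day 1, and 5 and 7 were at day 14, while against CX3CR1+ macrophages 3 were higher at day 1 and 0 at day 14.

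Lists specific to a branch were mixed. Over the 4 comparisons with macrophages, 1.11% to 10.9% of all genes tested were called higher in F4/80- cells and 6.59% to 11.1% lower. Of 10 tested cDC1 genes other than the members, 0 and 1 were higher in F4/80- cells than in CD9+ and CX3CR1+ macrophages on each day, and 1 to 4 were lower. Irf8, the lineage factor of cDC1 and also a factor of monocytes, had 142 and 215 mean CPM in F4/80- cells on days 1 and 14, 140 to 186 in CD9+ and 198 to 293 in CX3CR1+ macrophages. Of 9 tested cDC2 genes, 1 to 4 were higher and 2 to 5 lower against the macrophage populations. Cd7, a surface molecule of lymphoid cells and of some dendritic cells and precursors, had 15.5 and 20.7 mean CPM in F4/80- cells. It had at most 1.02 in the macrophage and neutrophil groups, so it could only enter the test where F4/80- cells were high. With that limit, it was the single gene of the dendritic cell lists called higher against both macrophage populations on both days. Rab7b, Sirpa, Relb, Csf1r and Zeb2 were called lower in all 4 of those comparisons. Irf4, which cDC2 need, had 54.9 mean CPM in CX3CR1+ macrophages at day 14 and 22.4 in F4/80- cells (log2 -1.29 ± 0.39 SE, adjusted p = 0.0163).

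Of 6 tested genes of mature migratory dendritic cells, 2 were higher in F4/80- cells at day 1 against CD9+ and against CX3CR1+ macrophages. In these comparisons 6.16% and 10.9% of all genes were higher. The 2 were Fscn1, which bundles actin, and Ccl22, a chemokine. Fscn1 had 2.34 mean CPM against 0.106 and 0.162 in CD9+ and CX3CR1+ macrophages, and Ccl22 had 5.86 against 0.792 and 0.224. At day 14 the differences from CD9+ macrophages did not pass, at log2 1.43 ± 0.76 SE for Fscn1 and 0.13 ± 1.02 SE for Ccl22 (adjusted p = 0.278 and 0.963), whereas Fscn1 was called higher than in CX3CR1+ macrophages (log2 3.23 ± 0.89 SE, adjusted p = 0.00928). The sum of the mature migratory list was not higher in F4/80- cells, at 123 to 127 CPM at day 1 and 136 to 140 at day 14. It was 131 to 134 and 167 to 186 CPM in CD9+ macrophages, and 157 to 160 and 196 to 206 in CX3CR1+ macrophages. Relb, a gene of this list, was called lower in F4/80- cells against both macrophage populations on both days. Of 6 tested plasmacytoid genes other than Siglech, 1 or 2 were higher in F4/80- cells in each of these 4 comparisons, where 1.11% to 10.9% of all genes were. None was lower, where 6.59% to 11.1% of all genes were. Tcf4, the factor that sets plasmacytoid identity, had 33.1 and 35.3 mean CPM in F4/80- cells against 34.1 to 57.6 in the macrophage groups. Of 15 tested growth and lineage factors, 0 were higher and 3 to 6 lower against the macrophages. Csf1r, the receptor for the macrophage growth factor, had 129 and 122 mean CPM in F4/80- cells against 447 to 915 in the macrophage groups.

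Markers of other cell types also differed between the F4/80- libraries and the macrophages, beside the members. Over the 4 comparisons with macrophages, 1.11% to 10.9% of all genes tested were called higher in F4/80- cells and 6.59% to 11.1% lower. The members summed to 44.7 to 47.6 CPM in F4/80- cells at day 1 and 69.9 to 72.4 at day 14, 60.1 to 63.7 in CX3CR1+ macrophages at day 14, 15.2 to 18 there at day 1, 14.1 to 30.4 in CD9+ macrophages and at most 3.97 in neutrophils. Of 11 myeloid progenitor genes, 10 and 9 were higher in F4/80- cells at day 1 than in CD9+ and CX3CR1+ macrophages, and 1 and 11 at day 14, with 0 lower. Their sum was 2517 to 3387 CPM in F4/80- cells, 665 to 2302 in CD9+ and 143 to 325 in CX3CR1+ macrophages. Mpo, the myeloperoxidase of granulocyte precursors, had 1732 and 1985 mean CPM in F4/80- cells, and Kit 31.2 and 69.3 although the lineage antibodies covered c-kit. Of 8 basophil and mast cell genes, 7 or 8 were higher in each of the 4 comparisons. Their sum was 1430 to 2257 CPM in F4/80- cells, against 159 to 556 in CD9+ and 3.82 to 8.91 in CX3CR1+ macrophages. Neutrophils also had a high sum of these genes, 1159 to 1394 CPM at day 1 and 1149.5 to 1232 at day 14. Over all 16 libraries Hdc had the highest mean of this list, 425 CPM, with Prss34 next at 141. How much of the neutrophil sum was Hdc is not given here.

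Neutrophil genes summed to 33104 to 43516 CPM in F4/80- cells, 5694 to 20524 in CD9+ macrophages, 506 to 1102 in CX3CR1+ macrophages and 53812 or more in neutrophils. All 10 macrophage genes were lower in F4/80- cells in all 4 comparisons, with sums of 78.8 to 130 CPM against 748 to 1587. Among the 10 is Adgre1, which encodes the F4/80 by which the cells were sorted. Monocyte genes summed to 5356 to 5870 CPM in F4/80- cells and to 6637 to 22282 in the macrophage groups. Of the 10, 0 or 1 were higher and 2 to 6 lower, where 1.11% to 10.9% and 6.59% to 11.1% of all genes were. Eosinophil genes summed to 37.3 to 129 CPM in F4/80- cells and reached 7075 to 11467 in CD9+ macrophages of day 14. B and plasma cell genes summed to 80 to 162 CPM in F4/80- cells, most of it Jchain at 77.5 and 105. CD9+ macrophages had sums of 41.8 to 91.2 CPM at day 1 and 172 to 204 at day 14, and CX3CR1+ macrophages 14.6 to 27.5. T cell genes summed to 12.7 to 20.7 CPM in F4/80- cells, 12.1 to 30.1 in CD9+ and 2.27 to 10.1 in CX3CR1+ macrophages. NK and innate lymphoid genes summed to 18.3 to 32.9 CPM in F4/80- cells, 5.175 to 25.4 in CD9+ and 1.25 to 2.13 in CX3CR1+ macrophages. Single genes led both lists in their mean over all 16 libraries. Nkg7 had 9.45 CPM in the NK list, with Klrd1 next at 1.13, and Il7r had 10.5 in the T cell list, with Cd3d next at 1.4. Trac, the constant chain of the T cell receptor, was at 0.0917 and 0.0364 mean CPM in F4/80- cells. The part of these cell types in the levels of the members was not tested.

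**Figure D4:**
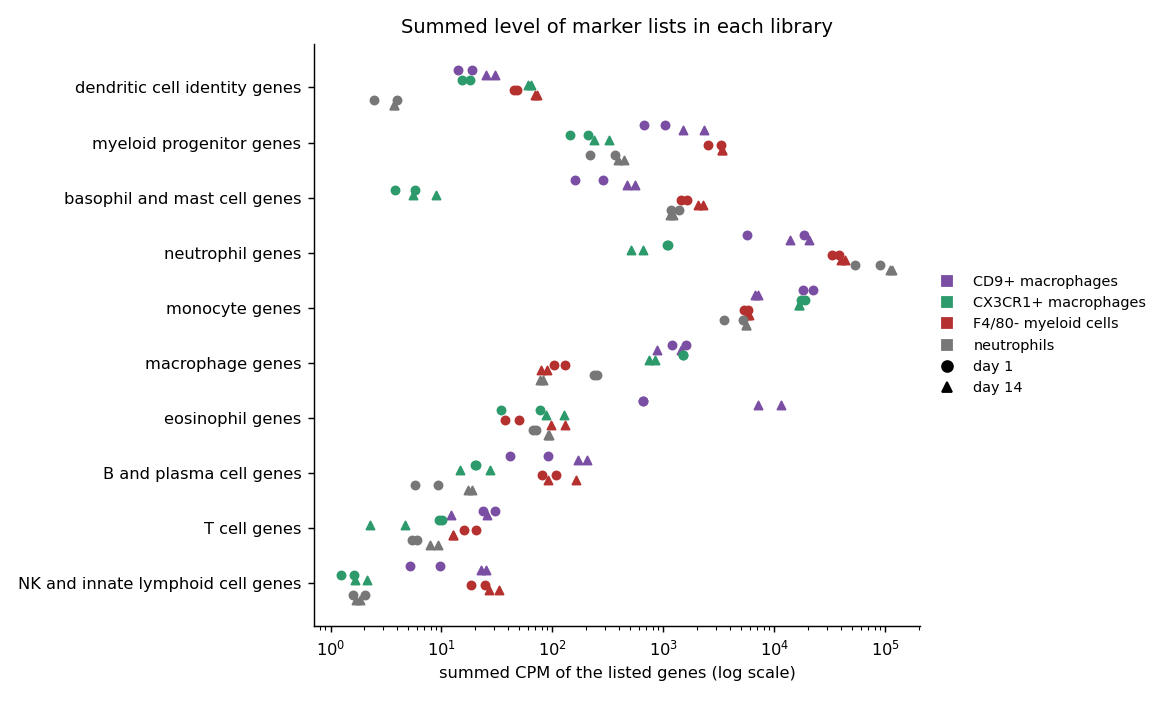
Summed CPM (horizontal axis, log scale) of the 9 dendritic cell identity genes and of marker lists of 9 other cell types in each of the 16 libraries, coloured by population, circles for day 1 and triangles for day 14. In F4/80- cells (red) the progenitor and the basophil and mast cell lists lie between 1430 and 3387 CPM, and the dendritic cell identity genes between 44.7 and 72.4. Lists differ in length and in their genes' levels, so only libraries within a list can be compared.

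The genes most like each member were found by Pearson correlation of log2 CPM over the 16 libraries, given as a description since the libraries share populations, days and depth. Flt3 was most like Kmo (0.98), Dpp4 (0.98) and Asrgl1 (0.97), and Cd209a was most like Irf4 (0.98), Pdlim1 (0.96) and Exoc4 (0.95). For Zbtb46 they were Iqcb1 (0.94), Nlgn2 (0.91) and Mgl2 (0.9), for Batf3 Phka1 (0.94), AA414768 (0.94) and Maml2 (0.94), and for Clec9a Gm37082 (0.93), Oxr1 (0.9) and Sptbn1 (0.88). For Siglech they were D430036J16Rik (0.95), Slbp (0.93) and Trmt2b (0.92), and for Itgae Bag2 (0.9), Pik3ip1 (0.86) and Zc3hav1l (0.79). Among the members themselves Flt3 and Cd209a were the most alike pair (0.89), and Batf3 correlated at -0.28 with Itgae, -0.12 with Clec9a and -0.01 with Siglech.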

How the data were processed

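Bulk RNA-seq was made from 16 pools of sorted cells. The authors deposited unnormalized read counts per gene and, per the methods, made SMART-Seq Stranded libraries, used Cutadapt for trimming, STAR for alignment to mm10 and Gencode M23 for counting. The table holds 20200 genes, each with at least 17 counts in all. Counts were used as deposited. Genes whose mean CPM per library total reached 3 in at least 1 group were kept (11998), scaled by TMM and fitted with edgeR 4.0.16 (R 4.3.3) as 8 groups without a block. The quasi-likelihood test gave 14 comparisons, and Benjamini-Hochberg adjustment ran over all genes tested. Exon lengths came from Gencode M21 of the same build, and promoter sequences from RefSeq.

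Replicates of a group are separate pools of mice. The p-values rest on the spread between replicates, estimated over all 8 groups, and take no account of mice shared between populations. Given the number of mice in the methods, each pool was probably sorted into all 4 populations, with the replicate number as its name. Same-numbered libraries deviated together weakly (correlations of 0.0132 to 0.144 over 12 pairs of populations). The methods name no block and the fit here used none, and blocked values are given where they change a call. Intervals and floors cover counting error only. The fit was tested on simulated data, for F4/80- against CD9+ cells of day 14. It called 2 of 50 genes changed 1.5-fold, 19 of 46 changed 2-fold and 45 of 49 changed 4-fold. Of the unchanged genes, 5 of 10877 were called. The changed genes had a mean over groups of at least 1 CPM, so lower levels were not covered. The rule for naming genes covered the members, the sort antigens, the most abundant genes of each list and the 3 genes most correlated with each member. It also covered dendritic cell list genes called in 1 direction against both macrophage populations at both days. Only some of the sort antigens and of the most abundant genes are named here. Other list genes were named after their values were seen. Members and lists were chosen with earlier results of these data known. Of the listed genes, Amica1, Ccl19, Ccl21a, Klk1, Xcl1, Cd3e, Cd8a, Cd8b1, Trbc2, Ncr1, Gzma, Eomes and Il2rb were not analysed here. Alternatives were DESeq2 1.42.0, other scalings and filters, thinned counts, a replicate block, fits of the compared libraries alone and leaving out each library.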

Additional observations from a re-analysis of the deposited data

How the results depend on the processing

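Of 1226 values of the tested members under the alternatives, 31 changed sign, none of them called in either fit, and 1116 kept their side of the threshold, 37 gained a call and 73 lost one. The larger moves in the counts of called members were as follows. Smaller ones are left out, such as 4 members between F4/80- and CD9+ cells on day 1 with DESeq2 (3 in edgeR). Fitting only the libraries compared gave 1 member called between F4/80- and CD9+ cells on day 1 (3 in the fit of all libraries) and 4 on day 14 (2), 4 against CX3CR1+ macrophages on day 14 (2), 0 between CD9+ and CX3CR1+ macrophages on day 1 (3), 3 over time in F4/80- cells (1), 3 in CX3CR1+ macrophages (5) and 0 in neutrophils (1), and 3 for the difference of the time changes of F4/80- and CX3CR1+ cells (0). Thinning to the smallest library gave 5 against CD9+ macrophages on day 1, 4 against CX3CR1+ macrophages on day 14, 0 between the macrophages on day 1, 3 over time in CX3CR1+ macrophages and 0 in neutrophils. DESeq2 gave 4 against CX3CR1+ macrophages on day 14 and 2 for the difference of time changes. Batf3, where called against macrophages, was lower in F4/80- cells. Requiring 3 CPM in every group left none of the 9 members to test.

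Leaving out 1 library at a time gave 2 to 4 and 1 to 2 called members for F4/80- against CD9+ cells on days 1 and 14, 4 to 6 and 1 to 1 against CX3CR1+ macrophages, and 4 to 6 and 4 to 5 against neutrophils. It gave 0 to 3 and 1 to 1 between the macrophage populations. Over time it gave 0 to 0 in F4/80- cells, 1 to 1 in CD9+, 1 to 3 in CX3CR1+ macrophages and 0 to 1 in neutrophils, and 0 to 1 and 0 to 0 for the 2 differences of time changes. A lone library was assumed to vary like the other groups.

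When replicate number entered the model as a block, 6 of 98 member calls changed and no other. Itgae lost 4 (adjusted p of 0.0545 to 0.0686), Cd209a lost its call between the macrophages on day 14 (adjusted p = 0.0506), which left 1 member there (2 without the block), and Zbtb46 gained one against CX3CR1+ macrophages on day 14 (adjusted p = 0.0495).

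Scaling by library size alone brought the median of all genes to 0.27 on the log2 scale for F4/80- against CD9+ cells on day 1, where 60.8% of all calls were then higher instead of 40%, and to 0.59 and 0.60 against neutrophils, where 75.2% and 77.6% were higher instead of 53.9% and 56.2%. Upper quartile factors gave 65.5% and 66% there. For CD9+ against CX3CR1+ macrophages on day 1 library size alone gave 55% instead of 77.2%, for CD9+ macrophages over time 73% instead of 57.7%, and for the difference of time changes of F4/80- and CD9+ cells 15.7% instead of 35%. No tested member changed sign under these scalings. Depth limits Xcr1, Ccr7, Siglech and Itgae most, where 1 count is worth up to 0.12 CPM.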
